A study of Sus scrofa with 9 samples.

Results

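Adipogenic and lipid storage genes are the genes through which a mesenchymal stem/stromal cell (MSC) becomes a fat cell and through which a fat cell takes up, makes, stores and releases fat. A list of 45 such genes was looked up by symbol in 2 tables of exonic 5-hydroxymethylcytosine (5hmC), and 43 were found in both, out of 18933 genes in the table that holds Obese-MSCs with Lean-MSCs and 18992 in that of vitamin-C-treated with untreated Obese-MSCs. CEBPB, an early adipogenic transcription factor, and AGPAT2, an enzyme of triglyceride synthesis, were in neither table and were not analysed here. The list was made from gene names and gene function, but it was chosen with earlier results of these data known.

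The MSCs came from subcutaneous abdominal fat of female domestic pigs that were 3 months old when their diet began. Lean-MSCs were from pigs on standard chow and Obese-MSCs from pigs on a high-fat/high-fructose diet, in both cases for 16 weeks, and each group had 3 libraries (Lean 7, 8 and 9; Obese 1, 2 and 3). Vitamin-C-treated libraries 4, 5 and 6 were Obese-MSCs given 50 µg/mL of vitamin-C over 48 h, and which treated culture shares an animal with which untreated one is not given in the sources used here. All cells were cultures expanded in growth medium with platelet lysate. Per the paper, this medium itself held some vitamin-C, so untreated cells were not free of it. The paper adds that the effect of the treatment may therefore be underestimated. Each library is a mixture of all cells in its culture, so fewer marked cells and less 5hmC per cell cannot be told apart. The assay, hydroxymethylated DNA immunoprecipitation sequencing (hMeDIP-seq), captures sonicated DNA that carries 5hmC with an antibody.

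As background, adipogenesis is driven by a cascade in which C/EBP factors switch on PPARG, the master regulator of the fat cell, which acts together with its partner RXRA on genes for lipid uptake, lipid droplets and adipokines. Fat cells esterify fatty acids from the blood or from their own synthesis into triglyceride, coat the droplet with perilipins, and release the fat again through lipases. 5hmC is made from 5-methylcytosine by the TET dioxygenases, for which vitamin-C is a cofactor, and gene bodies that carry it are often, but not always, active. 5hmC over exons is not an RNA level, and no RNA was used here.

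Values were normalized counts of hMeDIP-seq reads over all exons of a gene. Library totals were already equalized within each table, between 494566 and 522269 in the first and between 547242 and 593846 in the second, so the depth in reads is unknown and the only error given is the spread between 3 libraries. The untreated Obese libraries stood in both tables and were 1.10 to 1.13 times as high in the second, as a median over 38 of these genes, so groups were compared only within a table. A group mean at or under 3 normalized counts was taken as low. Genes were called by the criteria of the study, which ask for an unadjusted p-value up to 0.05 in a two-sided equal-variance test and for group means whose ratio reaches 1.4 (high 5hmC) or does not exceed 0.7 (low 5hmC). A separate fit with limma on log2(normalized count + 1) gave p-values adjusted over all genes in the upper 80% by mean, and for single genes the 20 arrangements of 3 libraries against 3 gave an exact two-sided permutation p, which cannot go under 0.1. The spread of these genes within a group was close to that of other genes in the first table, with a median SD of 0.38 on the log2 scale over 37 members against 0.39 over all genes, and larger in the second, at 0.49 over 38 members against 0.41.

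The markers chosen to check the cells gave no clear reading, since exonic 5hmC was present at genes of every cell type examined. Over 5 MSC markers the summed 5hmC was 294 to 526 normalized counts in Obese-MSCs and 280.0 to 336 in Lean-MSCs. Over 3 markers that MSCs should lack it was 60.6 to 71.6 against 66.9 to 89.4, over 6 macrophage and lymphocyte markers 162 to 239.8 against 187 to 217, and over 4 endothelial markers 209 to 219.9 against 169 to 247. These sums overlapped between Obese-MSCs and Lean-MSCs in every list. Among single markers, 1 of 6 macrophage or lymphocyte markers and 1 of 4 endothelial markers met the criteria, in a direction not given here. Over all genes, 2.07% had high and 2.43% low 5hmC. In each of these lists 1 marker had groups that did not overlap, beside 5.70% of all genes higher and 6.06% lower in all Obese libraries. In the second table the MSC, lacking and macrophage or lymphocyte sums overlapped, at 329 to 582 against 332 to 583, 68.0 to 91.5 against 68.7 to 78.7 and 165 to 257 against 178 to 265, whereas the endothelial sum was lower in treated cells, at 185 to 231 against 236 to 244. No single marker met the criteria there, beside 1.11% of all genes with high and 0.806% with low 5hmC. For 1 of 4 endothelial markers the groups did not overlap, beside 3.24% of all genes higher and 2.67% lower in all treated libraries. The 6 mature adipocyte markers, all members of the list, summed to 136 to 148 in Obese-MSCs against 123 to 161 in Lean-MSCs, and to 148 to 159 in treated against 153 to 164 in untreated cells. No marker was at or under 3 normalized counts in all libraries, and the part of such cells in the results was not tested.

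**Figure D1:**
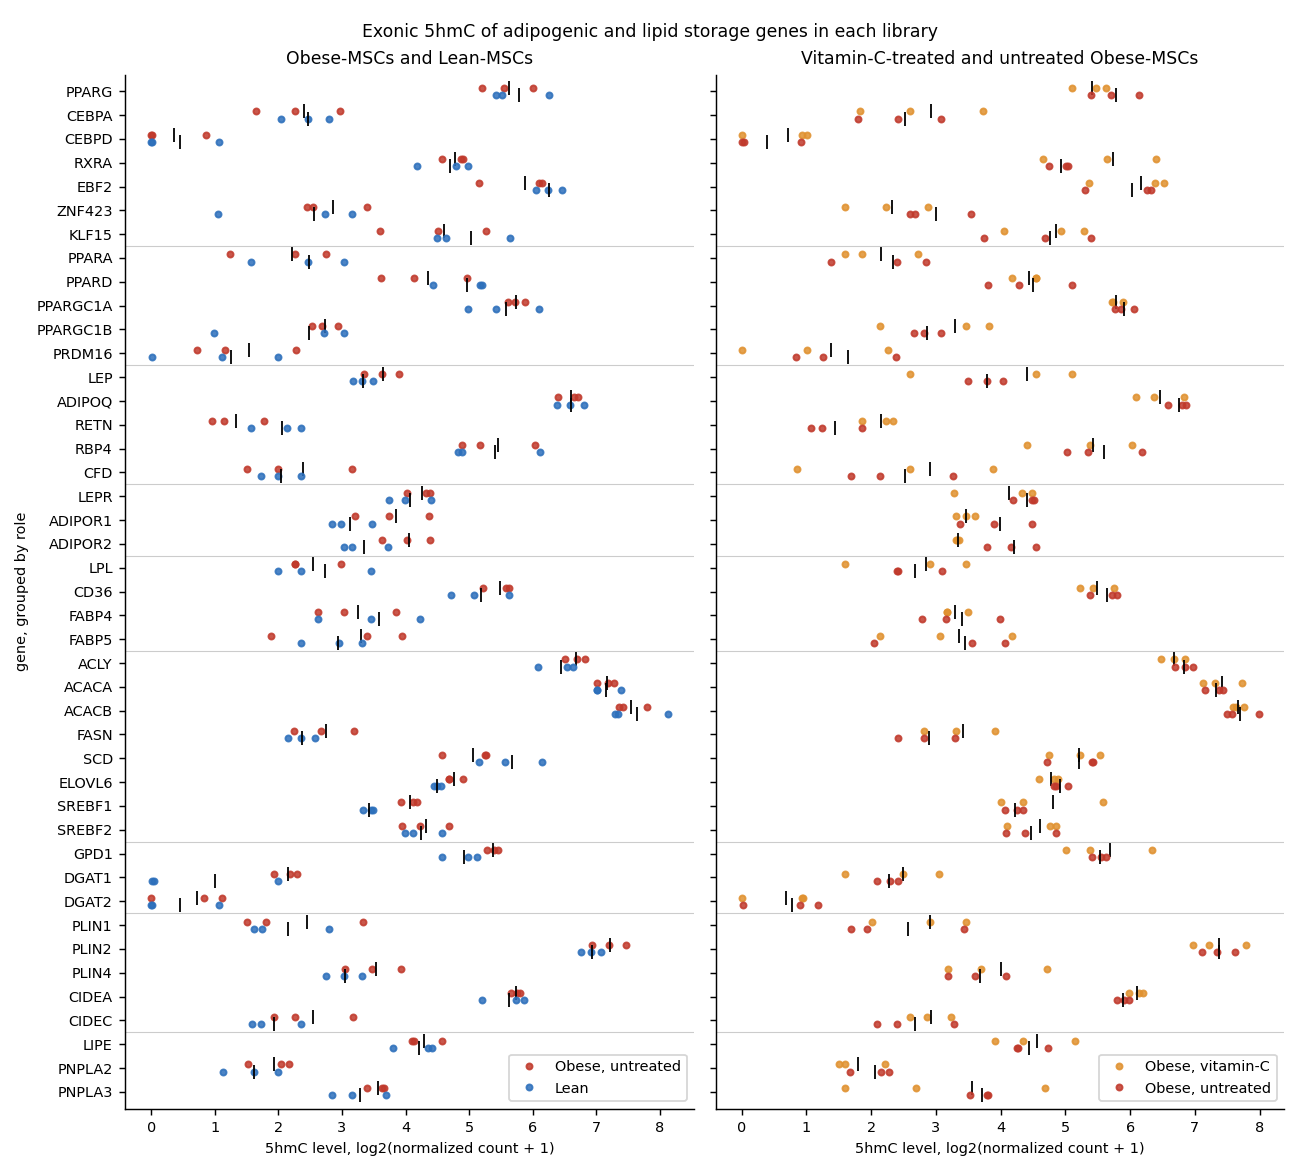
Exonic 5hmC of the 43 adipogenic and lipid storage genes in each library, as log2(normalized count + 1), with genes grouped by role from transcription factors (top) to lipases (bottom). Points are libraries and black ticks mark the mean of the 3 normalized counts of a group; in most genes the points of the 2 groups lie among each other, and SREBF1, ELOVL6 and GPD1 are the genes whose Obese and Lean points do not overlap.

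The first comparison asked whether the diet of the donor changed 5hmC in these genes. In Obese-MSCs versus Lean-MSCs, SREBF1, which encodes a transcription factor that switches on fatty acid synthesis, had high 5hmC at 1.63 times the Lean mean, and no member had low 5hmC. This was 1 of 43 members (2.33%), beside 2.07% of all genes with high and 2.43% with low 5hmC. SREBF1, the elongase gene ELOVL6 and the glycerol-3-phosphate dehydrogenase gene GPD1 were higher in all Obese than in all Lean libraries, 3 of 43 (6.98%) beside 5.70% of all genes, and no member was lower in all of them, beside 6.06% of all genes. The shares with high 5hmC and with higher values in all Obese libraries were near the background, and those in the other direction were 0 of 43.

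By limma, none of the 36 members tested had an adjusted p-value of 0.05 or less, as was the case for 0% of all genes tested, and none had an unadjusted one, beside 6.81% of all genes. The smallest adjusted p-value of a member was 0.742, for SREBF1, and over the 14 settings tried the smallest lay between 0.649 and 0.961. For all 36 the 95% confidence interval of the difference included 0, and for 15 of them it stayed within a 2-fold change in either direction.

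In the fatty acid synthesis genes, 6 of 8 group means were higher and 2 lower in Obese-MSCs, with 1 meeting the criteria. SREBF1 (chromosome 12, 60733967 to 60750951, Sscrofa11.1) had 16.3, 17.1 and 14.2 normalized counts in Obese libraries 1, 2 and 3, and 9.09, 9.93 and 10.3 in Lean libraries 7, 8 and 9. The lowest Obese library was thus above the highest Lean library, and the group means were 15.9 ± 1.48 and 9.76 ± 0.61 (SD, n = 3 each). The log2 ratio of means was 0.70, between 0.65 and 0.78 with any library left out, with an exact permutation p of 0.1, the smallest possible.

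ELOVL6 (chromosome 8, 112038670 to 112190079), which lengthens saturated fatty acids, had 28.9, 24.6 and 24.8 normalized counts in Obese-MSCs and 22.6, 20.8 and 21.6 in Lean-MSCs. The groups did not overlap, but the ratio of means of 1.2 was under the threshold of 1.4, so ELOVL6 did not meet the criteria (log2 ratio 0.27, exact permutation p = 0.1). It had the smallest spread within groups of the members measured, with an SD of 0.097 on the log2 scale.

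FASN, the fatty acid synthase, had 5.398, 3.75 and 8.07 in Obese-MSCs and 3.44, 4.97 and 4.11 in Lean-MSCs. SCD, the desaturase that makes oleic acid, had 37.6, 37.0 and 22.7 in Obese-MSCs and 69.6, 34.7 and 46.2 in Lean-MSCs. The groups overlapped for both genes, and SCD was the fatty acid synthesis gene with the most negative log2 ratio (−0.63, exact permutation p = 0.3), with 1 Lean library, 7, at least 1.5 times the next highest of the 6. The remaining members of this role stayed closer together. ACLY, which makes cytosolic acetyl-CoA, had 102 ± 11.4 in Obese-MSCs against 85.8 ± 16.7 in Lean-MSCs. The acetyl-CoA carboxylase ACACA had 143 ± 13.3 against 141 ± 22.4 and its mitochondrial counterpart ACACB 186 ± 32.5 against 199 ± 69.7. SREBF2, the relative of SREBF1 that controls cholesterol synthesis, had 19.0 ± 5.29 against 18.0 ± 4.24.

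**Figure D2:**
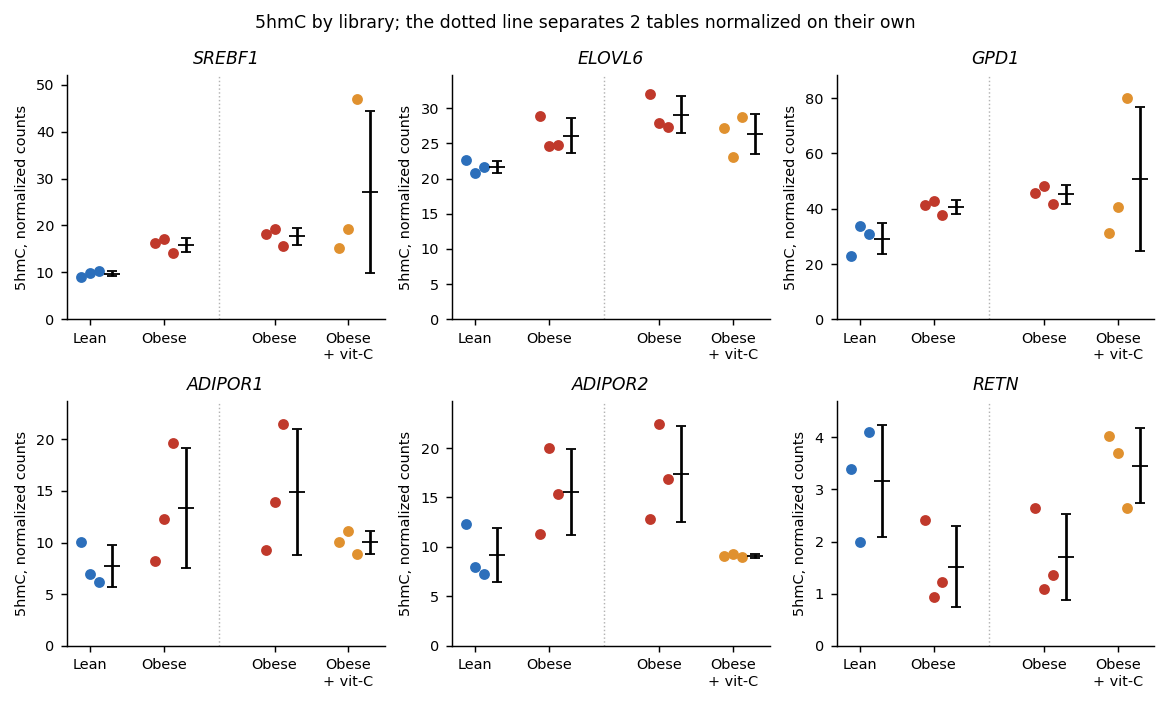
Exonic 5hmC (normalized counts, axes from 0) of 6 genes in each library, with the mean and SD of the 3 libraries of each group beside the points. The dotted line separates the 2 tables. SREBF1 lies at 14.2 to 17.1 in Obese-MSCs against 9.09 to 10.3 in Lean-MSCs. ADIPOR2 lies at 8.94 to 9.26 in vitamin-C-treated against 12.8 to 22.4 in untreated Obese-MSCs. RETN is near the limit of 3, and ADIPOR1 is shown as the counterpart of ADIPOR2, chosen after its values were seen.

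Among the triglyceride synthesis genes, the means of GPD1, DGAT1 and DGAT2 were all higher in Obese-MSCs and none met the criteria. GPD1 (chromosome 5, 16008179 to 16021676), which supplies the glycerol backbone of triglyceride, had 41.2, 42.7 and 37.8 in Obese-MSCs and 22.8, 33.8 and 30.8 in Lean-MSCs. The groups were apart, with means of 40.6 ± 2.52 and 29.1 ± 5.67 (log2 ratio 0.48, exact permutation p = 0.1), and the ratio of 1.39 lay just under the threshold. DGAT2, an enzyme of the last step of triglyceride synthesis, was at 0.775, 0 and 1.15 in Obese-MSCs and at 1.10, 0 and 0.0023 in Lean-MSCs, so its difference could not be read. DGAT1, which catalyses the same step, averaged 3.43 ± 0.55 in Obese-MSCs and 1.01 ± 1.71, under the limit, in Lean-MSCs.

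All 5 lipid droplet genes had a higher mean in Obese-MSCs, with overlapping groups and no call. PLIN2, the perilipin of small droplets in most cell types, had 175, 121 and 146 in Obese-MSCs and 134, 120.1 and 108 in Lean-MSCs (log2 ratio 0.29, exact permutation p = 0.2). PLIN1, the perilipin of mature fat cells, had 9.01, 1.84 and 2.50 in Obese-MSCs and 2.33, 5.97 and 2.07 in Lean-MSCs. Its higher Obese mean rested on library 1, since the other Obese libraries were both under 3. PLIN4 had 10.5 ± 3.54 in Obese-MSCs against 7.29 ± 1.6 in Lean-MSCs, CIDEA, a droplet protein typical of brown fat, 52.5 ± 2.76 against 48.7 ± 11.2, and CIDEC, which helps droplets to fuse, 4.86 ± 2.76 against 2.79 ± 1.14. The Lean mean of CIDEC was under 3, and without Obese library 3 its log2 ratio fell from 0.80 to 0.24.

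All 3 lipase genes had a higher mean in Obese-MSCs, and none met the criteria. LIPE, the hormone-sensitive lipase, had 16.1, 22.8 and 16.6 in Obese-MSCs and 20.2, 12.9 and 19.5 in Lean-MSCs. PNPLA2, which encodes the adipose triglyceride lipase, had 3.12, 1.87 and 3.49 in Obese-MSCs and 1.19, 2.98 and 2.06 in Lean-MSCs, with both group means under 3. PNPLA3, a related lipid-droplet enzyme, averaged 10.9 ± 1.18 against 8.69 ± 2.94. None of the 3 had groups apart.

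Of the 3 adipokine receptor genes, all had a higher mean in Obese-MSCs and none met the criteria. ADIPOR2 (chromosome 5, 68755789 to 68807247), a receptor for adiponectin, had 11.4, 19.99 and 15.3 in Obese-MSCs and 12.3, 7.94 and 7.21 in Lean-MSCs. Lean library 7 was above Obese library 1, so the groups overlapped, at a ratio of 1.70 (log2 ratio 0.77, exact permutation p = 0.2). The other adiponectin receptor, ADIPOR1, averaged 13.4 ± 5.79 against 7.73 ± 2.06 (log2 ratio 0.79, exact permutation p = 0.2), the most positive log2 ratio among the 36 members with both means above 3. For ADIPOR1, Obese library 3 was at least 1.5 times the next highest of the 6, and without it the log2 ratio was 0.41. LEPR, the leptin receptor, had 15.3, 19.0 and 19.9 in Obese-MSCs and 20.2, 14.9 and 12.4 in Lean-MSCs.

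Of the 5 adipokine and secreted protein genes, none met the criteria. ADIPOQ, which encodes adiponectin, had 104, 83.4 and 99.97 in Obese-MSCs and 111, 95.3 and 82.2 in Lean-MSCs. The means were nearly equal, with a limma log2 difference of 0.00 and a 95% interval from −0.44 to 0.44. LEP, which encodes leptin, had 9.13, 11.4 and 14.0 in Obese-MSCs and 7.98, 8.93 and 10.3 in Lean-MSCs, overlapping by Lean library 9 and Obese library 1. CFD, which encodes the fat cell protease adipsin, had 2.98, 1.85 and 7.94 in Obese-MSCs and 2.32, 2.98 and 4.10 in Lean-MSCs. Its higher Obese mean rested on library 3, since the other Obese libraries were both under 3. RETN, which encodes resistin, had 2.41, 0.930 and 1.22 in Obese-MSCs and 3.39, 1.98 and 4.10 in Lean-MSCs, with the Obese mean under 3. RBP4, the retinol carrier of the blood, averaged 42.8 ± 19.2 against 41.6 ± 23.4.

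Fatty acid uptake and transport genes were split, with 2 means higher and 2 lower. CD36, a fatty acid translocase, had 36.2, 48.4 and 47.0 in Obese-MSCs and 25.2, 48.7 and 32.9 in Lean-MSCs. LPL, which frees fatty acids from circulating lipoproteins, had 3.78, 3.77 and 6.91 against 9.94, 2.97 and 4.13. FABP4, the fatty acid carrier of fat cells, had 5.15, 13.4 and 7.16 against 17.8, 9.93 and 5.19. The highest value of CD36, LPL and FABP4 was in a Lean library each time, and the groups overlapped throughout. FABP5, a related carrier, averaged 8.88 ± 5.91 against 6.62 ± 2.41.

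In the adipogenic transcription factors, 2 of 7 means were higher and 5 lower in Obese-MSCs, and none met the criteria. PPARG had 45.8, 35.9 and 63.1 normalized counts in Obese-MSCs and 75.3, 44.7 and 42.2 in Lean-MSCs. The groups overlapped (log2 ratio −0.16, exact permutation p = 0.7), and the 95% limma interval, from −0.73 to 0.43, did not include a 2-fold difference. CEBPA, which sustains PPARG in the fat cell, had 2.14, 3.78 and 6.86 in Obese-MSCs and 4.53, 5.96 and 3.099 in Lean-MSCs, and its interval from −1.22 to 0.93 was wider. Among the rest, EBF2, a marker of brown preadipocytes, averaged 57.7 ± 19.9 against 75.9 ± 10.9 and KLF15, a later adipogenic factor, 23.4 ± 13.2 against 31.5 ± 15.3. RXRA averaged 26.6 ± 3.39 against 24.9 ± 6.97, ZNF423, a factor of preadipocyte commitment, 6.29 ± 2.83 against 4.88 ± 3.51, and CEBPD, an early C/EBP factor, was under 3 in both groups at 0.276 and 0.366.

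The other PPARs and the thermogenic regulators were also without a call. PPARGC1A, the coactivator of mitochondrial biogenesis, had 48.0, 57.9 and 51.8 in Obese-MSCs and 67.3, 30.8 and 42.1 in Lean-MSCs, so that the Lean libraries lay on both sides of all Obese libraries. PRDM16, which sets the brown fat programme, had 0.651, 3.84 and 1.24 against 1.15, 2.98 and 0.0088, with both means under 3. PPARD, a PPAR of fatty acid oxidation in many tissues, averaged 19.4 ± 9.81 against 30.4 ± 8.52, the lowest log2 ratio (−0.65, exact permutation p = 0.2) among the 36 members with both means above 3. PPARA, its counterpart in liver, averaged 3.62 ± 2.19 against 4.56 ± 2.59 and the coactivator PPARGC1B 5.61 ± 0.96 against 4.58 ± 3.21.

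**Figure D3:**
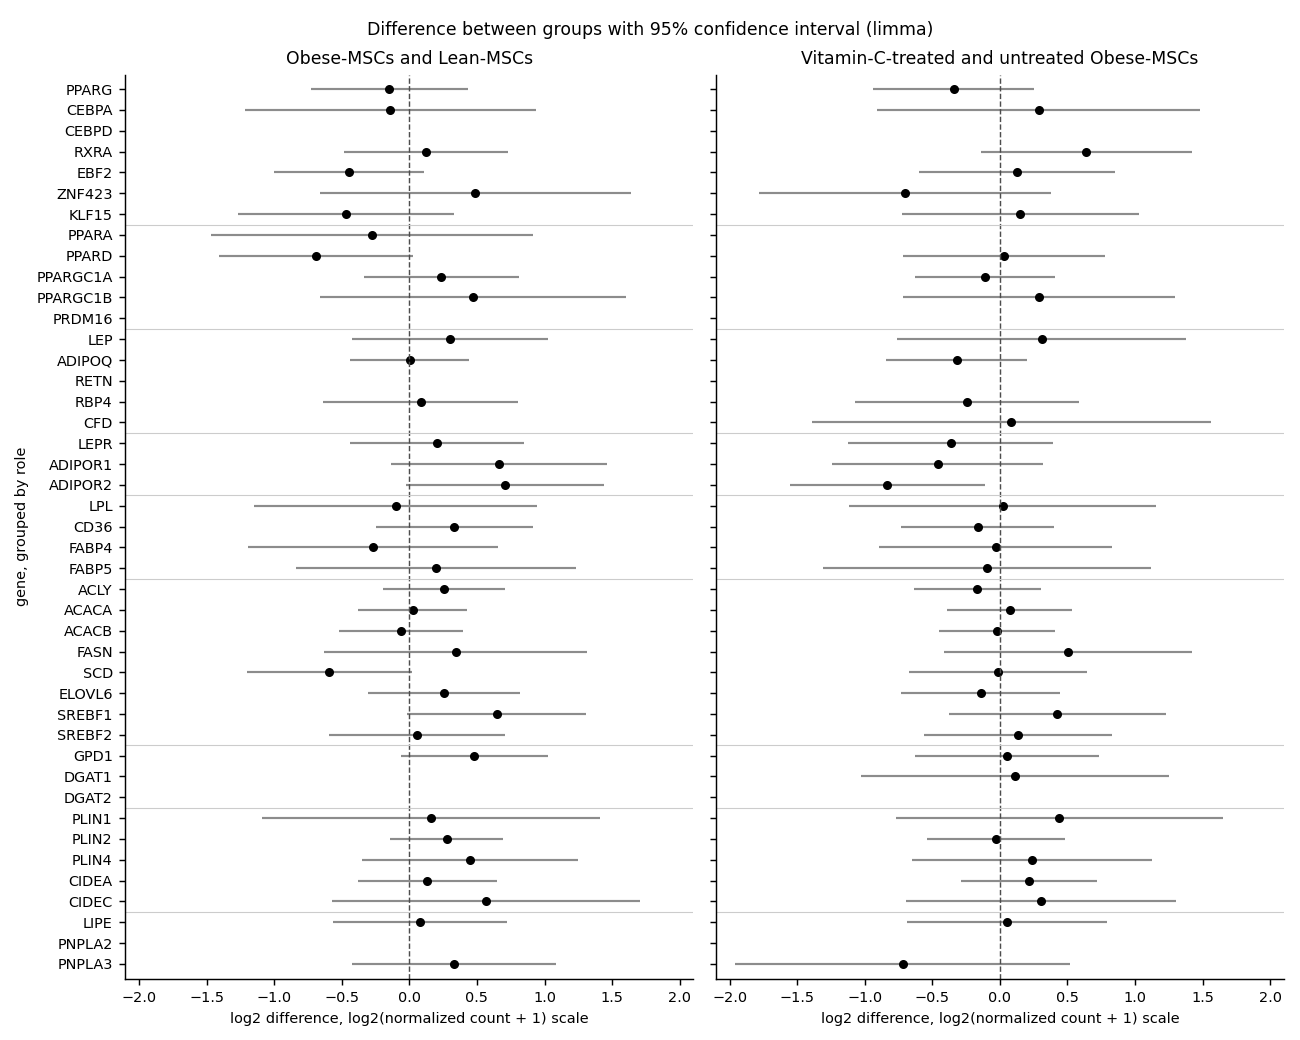
Limma difference between group means on the log2(normalized count + 1) scale with its 95% confidence interval, for the members tested (36 on the left, 37 on the right; positive is higher in Obese-MSCs or in treated cells, and genes without a point were too low to test). Every interval on the left crosses 0, and on the right all do except that of ADIPOR2.

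Across all 43 members the Obese mean was higher in 30 and lower in 13, with a median log2 ratio of 0.25 that includes 7 members with a group mean at or under 3. For the 36 members with both means above 3 the median was 0.18, beside 0.0064 for the 15177 genes above that limit. Of these 36, 16 (44.4%) had a ratio above the upper quartile of those genes and 6 (16.7%) below the lower quartile. This shift toward Obese-MSCs was a count of small differences, none of which passed limma. No test was made over the list, since it was chosen with earlier results known. Over 108 other genes of the same pathways with both means above 3, described below, the median log2 ratio was only 0.03. With a library left out the median over the 43 members ran from 0.13, without Lean library 9, to 0.26, and the number of members with a higher Obese mean from 26, without Lean library 8, to 34, without Lean library 7.

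The shift was visible in the libraries when read by their median member and not when read by their sum. Both readings summarize the same member values as the shift, so neither is separate support for it. The median member had 14.5, 14.3 and 14.2 normalized counts in Obese libraries 1, 2 and 3 and 12.3, 9.93 and 10.3 in Lean libraries 7, 8 and 9, whereas the median of all genes was 11.9 to 12.6 in Obese and 12.3 to 12.9 in Lean libraries. The summed members were 1274 to 1413 normalized counts in Obese libraries and 1149 to 1515 in Lean libraries, which overlap. Lean library 7 held the highest value of the 6 for 11 of 37 members, the most of any library, and the lowest for 8, beside 19.01% and 17.96% of all genes.

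**Figure D4:**
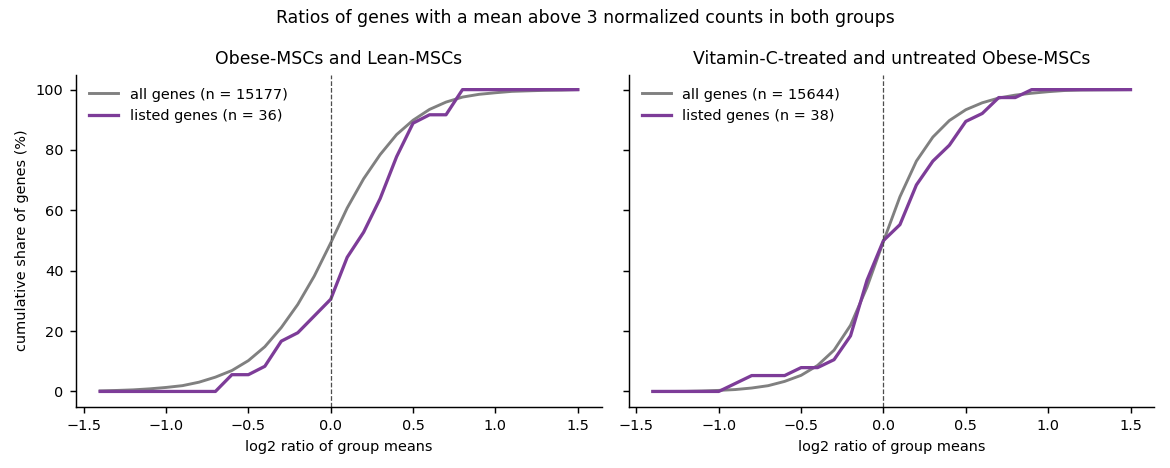
Cumulative share of genes (%) by log2 ratio of group means, for genes with both means above 3 normalized counts. On the left the listed genes (n = 36, median 0.18) lie to the right of all genes (n = 15177, median 0.0064) over the middle of the range, and on the right the curves of 38 listed genes and 15644 genes cross near 0.

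The second comparison asked whether vitamin-C added to that already in the medium changed 5hmC of these genes in Obese-MSCs. ADIPOR2 had low 5hmC after vitamin-C, at 0.523 times the untreated mean, and no member had high 5hmC. That was 1 of 43 members (2.33%), beside 0.806% of all genes with low and 1.11% with high 5hmC. ADIPOR2 was lower in all treated libraries (1 of 43, beside 2.67% of all genes) and RETN was higher in all of them (1 of 43, beside 3.24%). Each of these counts is a single gene.

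In the limma fit none of the 37 members tested had an adjusted p-value of 0.05 or less, as for 0% of all genes, and ADIPOR2 alone had an unadjusted one (0.027, 1 of 37 or 2.70%, beside 0.974% of all genes). The smallest adjusted p-value of a member was 0.999978, between 0.99957 and 0.999985 over 14 settings. The 95% interval included 0 for 36 of the 37, and stayed within a 2-fold change either way for 17. SREBF1, GPD1 and ELOVL6, whose groups were apart in the first comparison, overlapped between treated and untreated cells. The untreated Obese libraries serve in both comparisons, so the comparisons are not independent.

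Among the adipokine receptor genes, ADIPOR2 had 9.05, 9.26 and 8.94 normalized counts in treated libraries 4, 5 and 6 and 12.8, 22.4 and 16.9 in untreated libraries 1, 2 and 3. Treated values were nearly identical, and untreated values spread over a wider range above them, giving 9.08 ± 0.16 against 17.4 ± 4.83 (SD, n = 3 each). The log2 ratio was −0.94, between −1.11 and −0.71 with any library left out, and the exact permutation p was 0.1, the smallest possible. The call was near the threshold, since it was lost when treated library 4, 5 or 6 or untreated library 3 was left out, and when variances were not taken as equal. ADIPOR1 averaged 10.0 ± 1.11 in treated against 14.9 ± 6.13 in untreated cells (log2 ratio −0.57), with overlap. Without untreated library 3 the log2 ratio of ADIPOR1 was −0.21. LEPR had 19.1, 21.4 and 8.75 against 17.2, 21.4 and 21.9.

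Among the adipokines and secreted proteins, RETN had 4.02, 3.70 and 2.643 normalized counts in treated and 2.640, 1.10 and 1.36 in untreated cells. The groups were separated only by the difference between 2.643 and 2.640, and the untreated mean of 1.70 was under the limit. ADIPOQ had 113, 81.4 and 66.9 in treated and 116, 94.5 and 109.99 in untreated cells (log2 ratio −0.30, exact permutation p = 0.3). LEP had 5.05, 22.2 and 33.5 against 10.3, 12.9 and 15.3, so that treated libraries held both its lowest and its highest values. CFD had 5.03, 0.810 and 13.7 against 3.38, 2.21 and 8.60, the widest spread within groups of the members measured, and RBP4 averaged 41.8 ± 22.1 against 47.6 ± 20.9.

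For the fatty acid synthesis genes, 4 means were higher and 4 lower after vitamin-C. SREBF1 had 15.1, 19.3 and 47.0 in treated and 18.1, 19.3 and 15.7 in untreated cells. Treated libraries 4 and 5 lay within or beside the untreated range and library 6 far above it, and without library 6 the log2 ratio moved from 0.62 to −0.04. ELOVL6 had 27.2, 23.1 and 28.7 against 32.0, 27.9 and 27.3, FASN 6.04, 14.0 and 8.92 against 6.02, 4.34 and 8.82, and SCD 36.2, 45.5 and 25.8 against 41.6, 41.8 and 25.1. All of these groups overlapped, and the 95% limma interval of ELOVL6, from −0.73 to 0.45, and of SCD, from −0.67 to 0.64, did not reach a 2-fold change. ACLY averaged 101 ± 12.96 against 113 ± 11.07, ACACA 169 ± 37.6 against 159 ± 15.9, ACACB 202 ± 12.2 against 207 ± 39.1 and SREBF2 23.3 ± 6.32 against 21.2 ± 6.05.

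In triglyceride synthesis, GPD1 had 31.2, 40.6 and 80.1 in treated and 45.8, 48.2 and 41.6 in untreated cells. Library 6 was again the highest and libraries 4 and 5 were below all untreated values, so the log2 ratio of 0.16 turned to −0.33 without library 6. DGAT2 stayed under 1.5 normalized counts in every library, with 0.00090, 0.9299 and 0.8995 against 0.863, 0.012 and 1.25, and DGAT1 averaged 4.64 ± 2.63 against 3.83 ± 0.55.

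Lipid droplet and lipase genes showed no call. PLIN1 had 3.03, 6.47 and 9.98 in treated against 9.77, 2.22 and 2.83 in untreated cells. PLIN2 had 219, 148 and 124 against 195, 137 and 161, with means of 164 in both groups. Both genes overlapped between groups, as did PLIN4 (15.1 ± 9.08 against 11.8 ± 3.98), CIDEA (68.0 ± 5.43 against 58.5 ± 3.83) and CIDEC (6.55 ± 1.69 against 5.41 ± 2.89). CIDEA had the smallest spread within groups in this table, with an SD of 0.105 on the log2 scale. LIPE had 14.1, 19.4 and 34.3 in treated and 18.0, 25.7 and 18.3 in untreated cells. PNPLA2 had 2.01, 1.82 and 3.63 against 3.46, 2.18 and 3.83, with the treated mean under 3. PNPLA3 had the most uneven treated values of the lipases, with a mean of 10.7 ± 12.2 against 12.1 ± 1.39.

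The fatty acid uptake genes overlapped throughout. CD36 had 36.2, 52.9 and 42.0 in treated and 40.4, 54.6 and 51.7 in untreated cells. LPL had 2.02, 6.48 and 10.0 against 4.26, 4.32 and 7.54. FABP4 had 8.05, 10.2 and 8.02 against 5.88, 14.9 and 7.93, and FABP5 averaged 9.28 ± 7.04 against 9.88 ± 6.39. For LPL the treated libraries included both the lowest and the highest of the 6.

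In the transcription factors, PPARG had 43.3, 33.2 and 48.4 in treated and 50.9, 40.9 and 69.3 in untreated cells (log2 ratio −0.37, exact permutation p = 0.3). CEBPA had 5.03, 12.2 and 2.54 against 2.48, 4.30 and 7.45, and its ratio was above 1 mainly by treated library 5, without which the log2 ratio was −0.32. RXRA averaged 52.3 ± 29.9 in treated against 29.6 ± 3.34 in untreated cells, the most positive log2 ratio (0.82) among the 38 members with both means above 3, with overlapping groups. EBF2 averaged 71.0 ± 27.2 against 64.3 ± 22.6, KLF15 27.8 ± 11.4 against 26.05 ± 14.4, ZNF423 4.02 ± 2.19 against 7.02 ± 3.13, and CEBPD stayed low at 0.635 against 0.305. PPARGC1A had 52.3, 51.8 and 58.2 against 53.5, 65.4 and 57.04, with a 95% limma interval from −0.63 to 0.41. PRDM16 had 1.01, 3.78 and 0 against 0.786, 4.22 and 1.397, with both means under 3. PPARD averaged 20.6 ± 3.02 against 21.5 ± 10.5, PPARA 3.43 ± 1.93 against 4.04 ± 2.31 and PPARGC1B 8.85 ± 4.94 against 6.27 ± 1.11.

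The members had no common direction after vitamin-C. The treated mean was higher in 21 and lower in 22 of 43, and the median log2 ratio was −0.003. For the 38 members with both means above 3 it was 0.04, beside 0.0023 for 15644 genes. Of these 38, 13 (34.2%) lay above the upper quartile of those genes and 9 (23.7%) below the lower.

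Treated library 6 stood apart from the rest in these genes and, by smaller shares, over all genes. It held the highest value of the 6 libraries for 12 of 38 members and the lowest for 8, beside 20.5% and 21.6% of all genes. Treated library 4 held the lowest value for 11 members, beside 17.2% of all genes. For 8 members (21.1%) library 6 was at least 1.5 times the next highest, beside 3.75% of 16233 genes. Over all genes, that share was 0.708% to 1.63% in the other libraries. The 8 members were RXRA, LEP, CFD, SREBF1, GPD1, DGAT1, PLIN4 and PNPLA3. In PNPLA3, treated libraries 4, 5 and 6 had 2.02, 5.44 and 24.7 normalized counts against 12.98, 12.86 and 10.5 in untreated cells, and without library 6 the log2 ratio moved from −0.18 to −1.70. In RXRA, with 24.2, 49.0 and 83.7 against 32.0, 25.8 and 31.0, the log2 ratio fell from 0.82 to 0.31. Without library 6, PPARGC1B and RETN had high and PNPLA3 had low 5hmC, with the untreated mean of RETN, 1.70, under 3. The share of all genes called without library 6 is not given here. The measure was chosen after the values were seen, and the library had the lowest total of the table (547242) and the highest median over all genes (14.2); their part in the result was not tested.

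**Figure D5:**
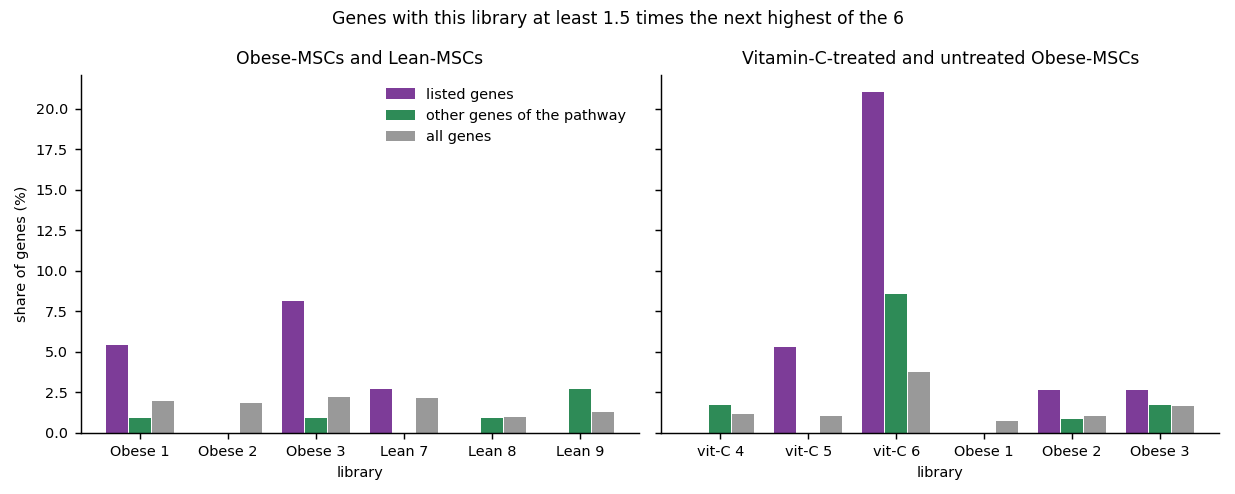
Share of genes (%) for which the named library was at least 1.5 times the next highest of the 6 libraries of its table, for listed genes, other genes of the pathway and all genes. Treated library 6 reaches 21.1% of 38 listed genes, 8.55% of 117 other genes of the pathway and 3.75% of 16233 genes.

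A wider list of 135 other genes of the same pathways, among them further adipogenic factors, acyl-CoA synthetases, elongases, droplet proteins, thermogenic genes, adipokines and fatty acid oxidation genes, gave 131 genes in both tables. In Obese-MSCs versus Lean-MSCs, 2 of 131 (1.53%) had high and 2 (1.53%) low 5hmC, beside 2.07% and 2.43% of all genes. In all Obese libraries 7 were higher and 4 lower, beside 5.70% and 6.06% of all genes. The 2 with high 5hmC were adipokine genes. NAMPT, which also encodes an enzyme of NAD synthesis, had 35.8, 38.0 and 29.6 in Obese-MSCs and 22.6, 22.8 and 18.5 in Lean-MSCs. AGT, the precursor of angiotensin, had 84.5, 63.5 and 53.3 in Obese-MSCs and 29.6, 40.7 and 43.1 in Lean-MSCs. The 2 with low 5hmC were ELOVL3, an elongase of brown fat, with 10.9, 9.45 and 12.8 in Obese-MSCs and 25.9, 20.8 and 24.6 in Lean-MSCs, and FABP7, a fatty acid carrier best known from brain, with an Obese mean of 0.562 under the limit. ELOVL3 thus lay opposite to its relative ELOVL6, and its groups did not overlap (log2 ratio −1.11, limma adjusted p = 0.668).

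By limma none of 106 tested genes of the wider list passed adjustment and 6 passed 0.05 before it, beside 6.81% of all genes. After vitamin-C none of the 131 met the criteria, beside 1.11% of all genes with high and 0.806% with low 5hmC. In all treated libraries 2 were higher and 2 lower, beside 3.24% and 2.67% of all genes. By limma 1 of 105 passed 0.05 before adjustment, beside 0.974% of all genes, and none after it. The treated values of ELOVL3, at 19.1, 13.9 and 11.5, overlapped the untreated values of 12.1, 10.8 and 14.1. Median log2 ratios of the wider list were 0.03 in the first comparison, over 108 genes with both means above 3, and 0.04 in the second, over 110.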

How the data were processed

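hMeDIP-seq was done on 3 Lean, 3 untreated Obese and 3 vitamin-C-treated Obese swine MSC libraries. The authors aligned reads to susScr 11.1 with Bowtie2 2.3.3.1 and removed duplicates with Picard 1.67. They counted reads over exons with HTSeq 0.9.1 and normalized them with edgeR 3.28.1, per the methods and the submitters' processing notes. The deposited signal is a normalized count per gene, fractional and never negative, in 2 separately normalized tables, so no count model was used. A value combines all exons, and reads of overlapping genes cannot be told apart. Totals were equalized, so a change of 5hmC common to all genes would not be seen.

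Groups came from the submitters' labels. In the vitamin-C table, 645 values below 1e-06 were set to 0, and 25 gene names had become dates. Tests were run on whole tables with Python 3.11.15, numpy 2.4.6, pandas 2.3.3, scipy 1.17.1 and limma 3.58.1 in R 4.3.3 (pseudocount 1, trend on the mean, Benjamini-Hochberg adjustment over all genes in the upper 80% by mean), and plots were drawn with matplotlib 3.10.9. Scripts were tested on simulated data. Log2 ratios in the text are of group means without a pseudocount unless limma is named, and limma differences understate those of low genes. Gene spans were taken from RefSeq for Sscrofa11.1 by symbol.

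Values in every library are given for members that met the criteria or whose groups did not overlap and for a fixed list of well-known members (PPARG, CEBPA, CEBPB, LEP, LEPR, ADIPOQ, FABP4, LPL, CD36, PLIN1, PLIN2, LIPE, PNPLA2, FASN, SCD, SREBF1, DGAT2, PPARGC1A, PRDM16 and CFD), and RXRA and PNPLA3 were added after their values were seen. The members and lists were chosen with earlier results of these data known. Alternatives were a p-value threshold of 0.01, log2 values, unequal variances, rescaling by size factors, quantile normalization, filters, pseudocounts of 0.5 and 5, no trend, and each library left out in turn.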

Additional observations from a re-analysis of the deposited data

How the results depend on the processing

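With 3 libraries a group and unknown read depth, only large differences could pass, and ratios are unstable where a mean is at or under 3 normalized counts. This touches 7 of the 43 members in the first median, among them RETN and DGAT1, which met the criteria only in some of the alternatives below. No paired analysis was possible because the groups share no replicate numbers and the labels do not say which cultures share an animal. In Obese-MSCs versus Lean-MSCs, the count of members with high 5hmC ran from 1 to 4 with a library left out (4 without Lean 8, namely SREBF1, GPD1, DGAT1 and PNPLA3), that with low 5hmC from 0 to 1 (1 without Lean 8, RETN), and the median log2 ratio from 0.13 (without Lean 9) to 0.26. SREBF1 met the criteria with each of the 6 libraries left out in turn. After vitamin-C, the count with high 5hmC was 1 with rescaling by size factors (RETN) and ran from 0 to 2 with a library left out: LEP without treated 4, PPARGC1B and RETN without treated 6, RETN without untreated 1. The count with low 5hmC was 0 at a p-value threshold of 0.01, 0 with unequal variances, and 0 to 1 with a library left out, the 1 being ADIPOQ without treated 4, PNPLA3 without treated 6, and ADIPOR2 without untreated 1 or untreated 2. The count by limma was 1 with unadjusted p-values, ADIPOR2. The cause was not tested. For these settings the share of all genes called is not given here, so the counts are not a result about the list. No called value changed sign. Of the values of named genes under the alternatives, 197 stayed the same in the first comparison, 8 moved by more than the spread and 2 newly passed; in the second 189 stayed the same, 9 moved, 5 newly passed and 4, all of ADIPOR2, no longer passed.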
